A study of Mus musculus with 14 samples.

Results

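The genes of the cytoplasmic translation initiation and elongation factors were followed in 14 mouse hearts by RNA-seq of poly-A selected RNA. Members were the symbols of both count tables that begin with Eif1 to Eif6 or with Eef1 or Eef2 and had at least 10 counts in at least 3 libraries, with names ending in -ps and a number (pseudogenes) left out. The name pattern matched 76 of 53735 symbols. Of these, 8 were left out by name and 5 fell below the count rule, which left 63 genes. Just inside the count rule were Eef1kmt4, with 21 to 44 counts per early library, and Eif5a2, with 30 to 48. Just outside it were Eif4ebp3, with 2 to 6 counts per early library, and Eif3j2, with 2 to 5. The symbols Eif5al3-ps, Eif4e1b and Eif2c5 also fell below it.

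The hearts came from male C57BL/6 mice that had all been given tamoxifen. Fam210a knockout hearts (cKO) carried Fam210afl/fl and alphaMHCMCM/+, a tamoxifen-activated Cre driven by a cardiomyocyte promoter, so that recombination is directed to cardiomyocytes only. Control hearts carried alphaMHCMCM/+ without the floxed alleles. There were 4 cKO and 4 control hearts at about 5 weeks after tamoxifen (early), when the submitters describe cardiac function as normal, and 3 cKO and 3 control hearts at about 10 weeks (late), when they describe it as severely defective. The labels give no age of the animals. Nor do they state whether each library came from its own animal, and the p-values therefore speak only of the spread among these libraries. Fam210a encodes a mitochondrial protein.

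Protein synthesis starts when eIF2 brings the initiator tRNA to the small ribosomal subunit, which eIF3, eIF1 and eIF1A prepare for scanning, and when eIF4F (the cap-binding protein eIF4E, the helicase eIF4A and the scaffold eIF4G) recruits the mRNA by its cap. eIF2B recharges eIF2 with GTP, and kinases that phosphorylate the alpha subunit of eIF2 under stress block that step, which lowers general initiation and favours the mRNA of the transcription factor ATF4 (the integrated stress response). During elongation eEF1A delivers aminoacyl-tRNAs and eEF2 moves the ribosome along the mRNA. Heart muscle is known to use a muscle and nerve form of eEF1A, encoded by Eef1a2, in place of much of the general form encoded by Eef1a1.

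Library totals were 15657298 to 19466469 counts in the early table and 29989076 to 35750964 in the late one. The submitters gave 1 table for each time; an effect of time cannot be told apart from one of the table, and levels were compared only within a table. Fam210a itself was 158, 135, 140 and 150 CPM in early cKO hearts, against 173, 178, 166 and 165 CPM in early control hearts (CPM, read counts divided by the library size after TMM scaling in edgeR). In late hearts Fam210a was 65.1, 70.8 and 64.6 CPM in cKO, against 131, 120 and 134 CPM in controls. The early decrease missed the threshold (log2 fold change -0.22, adjusted p = 0.17) and the late decrease passed it (-0.94, adjusted p = 6.5e-05, edgeR's quasi-likelihood test with Benjamini-Hochberg adjustment over all tested genes, as for every adjusted p given here; calls are at adjusted p under 0.05). The title and description of early cKO replicate 4 name a knockout, but the genotype recorded for it is that of the controls; its Fam210a level lay within the range of the other early cKO hearts. Late cKO replicate 3 stood apart from the other late cKO hearts, by a chi-square per gene of 106.57 and 100.68, where those hearts differed from each other by 21.51.

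At about 10 weeks, 44 of the 63 genes rose in cKO hearts, 7 fell and 12 were not called. Over all 14942 tested genes 31.8% were called higher and 33.2% lower, so the members' calls lay mostly on the higher side, at a median log2 fold change of 0.68 against -0.02 for all tested genes. Every late cKO heart lay above every control for 45 members and below every control for 5, against 34% and 35.9% of all tested genes. At about 5 weeks 2 members rose, Eif2s2 and Eif3c, none fell, and the median was 0.04. Background shares there were 0.517% called higher and 0.0961% called lower of 13529 tested genes. The 63 genes took 1.53 to 1.70% of all counts in late cKO hearts, against 0.952 to 0.991% in late controls, and 0.884 to 0.964% in early cKO hearts, against 0.861 to 0.893% in early controls.

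**Figure D1:**
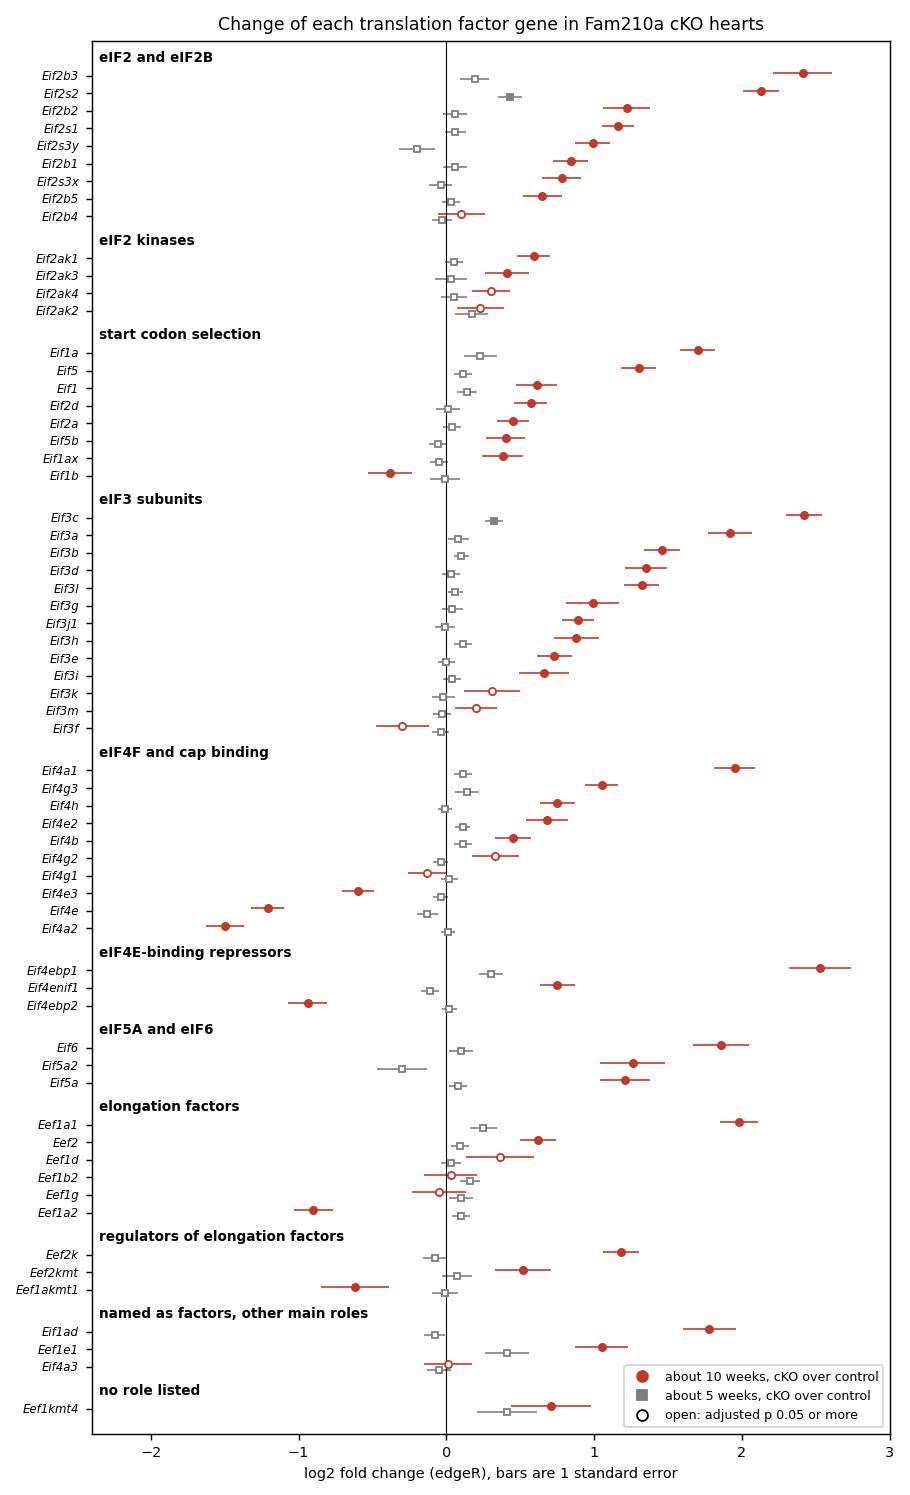
Log2 fold change of each of the 63 genes, cKO over control, grouped by role, at about 10 weeks (red circles) and about 5 weeks (grey squares), with bars of 1 standard error. Filled symbols have an adjusted p under 0.05: 44 red symbols right of 0, 7 left of it, and 2 grey ones, Eif2s2 and Eif3c.

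On GRCm38 (GENCODE M21), Eif4ebp1 (ENSMUSG00000031490) spans chr8:27260329-27276674 on the plus strand, Eif3c (ENSMUSG00000030738) chr7:126546455-126566411 and Eif2s2 (ENSMUSG00000074656) chr2:154871410-154892935 on the minus strand, and Eif2b3 (ENSMUSG00000028683) chr4:117019402-117087306 on the plus strand. Eef1a1 (ENSMUSG00000037742) spans chr9:78478449-78489151 and Eef1a2 (ENSMUSG00000016349) chr2:181147653-181157014, both on the minus strand. Eif4a1 (ENSMUSG00000059796) spans chr11:69666936-69672423 on the minus strand and Eif4a2 (ENSMUSG00000022884) chr16:23107444-23114136 on the plus strand.

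In whole hearts, fewer cells of a type and less RNA per cell cannot be told apart. Cardiomyocyte markers summed to 56474 to 67789 CPM in late cKO hearts, against 59298 to 67863 CPM in late controls, with Tnni3 and Myl2 lower among 6. Marker sums of the endothelium, fibroblasts and macrophages were lower in every late cKO heart than in any control. Endothelial markers summed to 327 to 391 CPM in cKO hearts, against 781 to 964 CPM in controls, and 5 of 5 fell. Fibroblast markers summed to 558 to 806 CPM in cKO hearts, against 1045 to 1370 CPM in controls, and 4 of 6 fell. Macrophage markers summed to 112 to 134 CPM in cKO hearts, against 182 to 192 CPM in controls, and 4 of 6 fell. The sum of the smooth muscle and pericyte markers, through Acta2 alone, and that of the erythroid markers were higher in every late cKO heart. Smooth muscle and pericyte markers summed to 1544 to 2280 CPM in cKO hearts, against 1134 to 1259 CPM in controls, where Acta2 rose and the other 4 fell. Erythroid markers summed to 155 to 293 CPM in cKO hearts, against 31.9 to 55.4 CPM in controls, and 3 of 3 rose. The sum of 4 atrial markers was also higher in every late cKO heart, at 1735 to 2721 CPM in cKO hearts, against 112 to 810 CPM in controls. Most of it was Nppa, an atrial gene that stressed ventricles are known to express again, at 2623, 1734 and 2376 CPM in cKO hearts, against 93.8, 139 and 566 CPM in controls (log2 fold change 3.07, adjusted p = 0.00174). Bmp10 was under 1 CPM in every late heart but control replicate 3, at 104 CPM, and Myl7 was also highest there, at 111 CPM. None of these markers was at 0 in all hearts of either group. The share of counts from mitochondrially encoded genes was 11.2 to 16% in late cKO hearts, against 19.7 to 22.6% in late controls. The part of these shifts in the factors' changes was not tested.

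The eIF2 and eIF2B subunits rose almost as a whole: 8 of 9 were called higher late, and Eif2b4 (0.10, adjusted p = 0.616) was not. Eif2s2, which encodes the beta subunit of eIF2, was 247, 236 and 289 CPM in late cKO hearts, against 60.9, 61.3 and 54.7 CPM in late control hearts. The lowest cKO heart was far above the highest control, and the log2 fold change was 2.13 (SE 0.12, adjusted p = 1.69e-06), a 4.36-fold difference. Eif2s2 was also 1 of the 2 genes called early: it was 66.1, 74.2, 71.1 and 59.4 CPM in early cKO hearts, against 47.1, 52.0, 55.1 and 47.6 CPM in early controls. All 4 early cKO hearts lay above all 4 controls (log2 fold change 0.43, SE 0.08, adjusted p = 0.0283). That call depended on single hearts, since leaving out cKO replicate 2 or 3, or a control other than replicate 3, gave adjusted p-values of 0.0699 to 0.117.

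Eif2b3, for the gamma subunit of the exchange factor eIF2B, had the largest log2 fold change of this group. It was 53.9, 61.6 and 89.9 CPM in late cKO hearts, against 13.8, 13.6 and 11.3 CPM in late controls, with cKO replicate 3 highest and no overlap (2.41, SE 0.20, adjusted p = 1.13e-05). Eif2b2 (1.22), Eif2b1 (0.84) and Eif2b5 (0.65), which encode other eIF2B subunits, rose less, and the subunit genes of 1 complex thus spanned 0.10 to 2.41 on the log2 scale. Eif2s1, whose product carries the serine that the stress kinases phosphorylate, was 72.7, 74.2 and 85.2 CPM in cKO hearts, against 35.5, 32.6 and 35.6 CPM in controls (1.16, SE 0.11, adjusted p = 2.9e-05). The gamma subunit of eIF2 has an X-linked and a Y-linked gene in mice, and both rose: Eif2s3y by 0.99 and Eif2s3x by 0.78. Of the 100-base windows of the longest Eif2s3x transcript, 35.3% also occur in another annotated gene, so its counts are less certain.

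Of the 4 eIF2 kinase genes 2 (50.0%) were called higher late and none lower, against 31.8% and 33.2% of all tested genes. These changes were smaller than those of most subunits of the kinases' target. Eif2ak1 encodes HRI, the kinase that senses heme and relays mitochondrial stress, and was 61.8, 62.9 and 54.5 CPM in late cKO hearts, against 39.6, 39.9 and 39.6 CPM in late controls. All 3 cKO hearts lay above the controls (0.59, SE 0.11, adjusted p = 0.00122). For comparison within the family, per kilobase of exon Eif2ak1 made up 59.9% ± 1.09 of the counts of the 4 kinases in late cKO hearts and 55.3% ± 2.23 in late controls (SD, n = 3 each). Eif2ak3 encodes PERK, the kinase of the endoplasmic reticulum, and was 19.4, 17.5 and 14.3 CPM in cKO hearts, against 11.1, 13.3 and 14.1 CPM in controls. Its highest control and lowest cKO heart nearly met, and the call (0.41, adjusted p = 0.0418) was lost when any late heart other than cKO replicate 3 was left out (adjusted p 0.0534 to 0.134). Eif2ak4, for the amino acid sensor GCN2, had a log2 fold change of 0.30 (adjusted p = 0.0715), and Eif2ak2, for the RNA-activated kinase PKR, one of 0.23 (adjusted p = 0.22). Without late cKO replicate 3 both were called higher (0.36, adjusted p = 0.0316, and 0.35, adjusted p = 0.04). In early hearts the 4 kinases had log2 fold changes of 0.03 to 0.17 and none was called.

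Among the factors of start codon selection 7 of 8 rose late and Eif1b fell. Eif1a encodes eIF1A, which keeps the scanning ribosome open, and was 40.6, 45.5 and 43.6 CPM in late cKO hearts, against 13.8, 14 and 12 CPM in late controls. The 2 groups were separated by a wide gap (1.70, SE 0.12, adjusted p = 4.54e-06), while its X-linked paralogue Eif1ax rose by 0.38 (adjusted p = 0.0415). Eif5, which triggers GTP hydrolysis by eIF2 at the start codon, was 291, 314 and 264 CPM in cKO hearts, against 123, 109 and 120 CPM in controls (1.30, adjusted p = 1.72e-05). Eif1 (0.61), Eif2d (0.57), Eif2a (0.45) and Eif5b (0.40), the last for the factor that joins the ribosomal subunits, made smaller rises. The calls of Eif1ax and Eif5b did not hold with library totals as the only scaling, without control replicate 2 or 3, and further without cKO replicate 3 for Eif1ax and control replicate 1 for Eif5b. Eif1b, a close paralogue of Eif1, was 25.5, 25.4 and 34.3 CPM in cKO hearts, against 39.7, 37.8 and 33.5 CPM in controls. Late cKO replicate 3 overlapped the controls (-0.38, adjusted p = 0.0453), and the call for Eif1b was lost when replicate 1 or 2 of either group was left out (adjusted p 0.122 to 0.161), as were its calls with DESeq2 and its size factors (0.0597 and 0.0631).

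eIF3 is the largest initiation factor, a complex that binds the small ribosomal subunit and mRNA. Of its 13 subunit genes 10 rose late and 3, Eif3f (-0.30, adjusted p = 0.187), Eif3k (0.31, adjusted p = 0.178) and Eif3m (0.20, adjusted p = 0.244), were not called. Without late cKO replicate 3, Eif3f was called lower (-0.53, adjusted p = 0.00152). Eif3c, a core scaffold subunit, was 820, 768 and 859 CPM in late cKO hearts, against 157, 148 and 151 CPM in late controls. The hearts of each group lay close together (2.42, SE 0.12, adjusted p = 6.28e-07, or 5.36-fold). Eif3c also rose early: 177, 194, 196 and 171 CPM in early cKO hearts, against 147, 145, 152 and 147 CPM in early controls. Again all cKO hearts lay above all controls (0.32, SE 0.06, adjusted p = 0.0261), and the call was lost when cKO replicate 2 or 3, or a control other than replicate 3, was left out (adjusted p 0.0912 to 0.115) and with library totals as the only scaling (adjusted p = 0.0602).

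The other eIF3 subunits followed at different distances. Eif3a, the largest subunit and partner of eIF3c in the core, was 694, 605 and 513 CPM in late cKO hearts, against 139, 166 and 176 CPM in late controls (1.92, SE 0.15, adjusted p = 9.06e-06). Eif3b, which carries the module with eIF3g and eIF3i, rose by 1.46, Eif3d, a subunit that can itself bind a cap, by 1.35, and Eif3l by 1.32. Eif3d overlaps an antisense gene over 43.3% of its exon bases, and the library kit does not mark strand. Eif3g (0.99), Eif3j1 (0.89), Eif3h (0.88), Eif3e (0.73) and Eif3i (0.66) rose less. The ratio of the highest to the lowest subunit gene, in counts per kilobase of exon, was 24.7 to 29.4 in the 3 late cKO hearts, against 16.4 to 19.2 in the 3 late controls. Eif3c was the highest subunit gene in each late cKO heart and Eif3h in each late control, with Eif3j1 the lowest in all 6. Eif3j1 shares 36.0% of its 100-base windows with Eif3j2, so its level is uncertain.

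**Figure D2:**
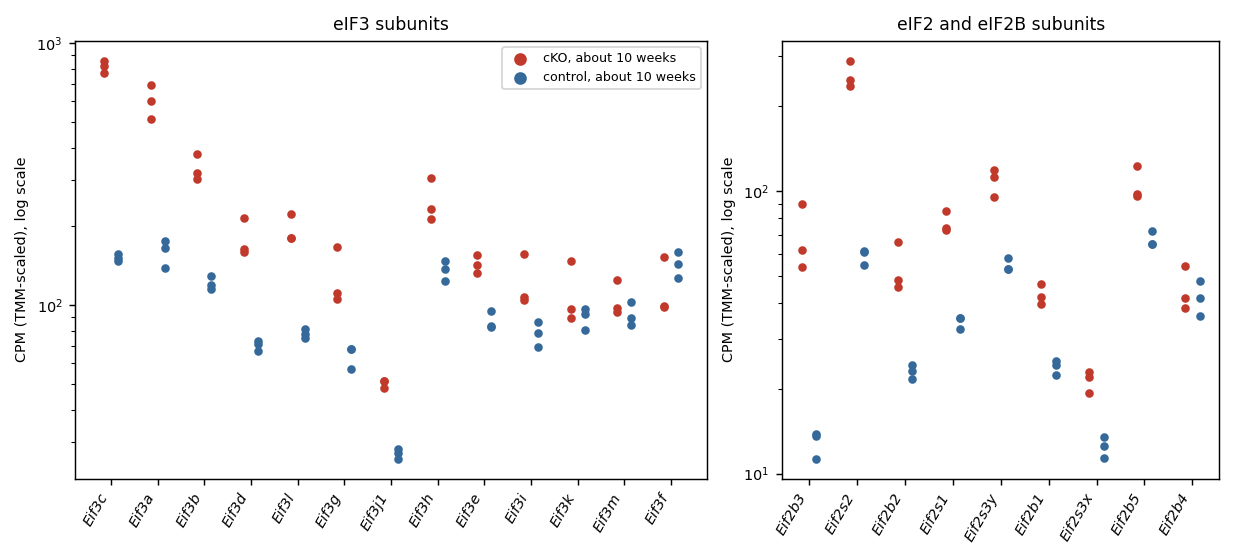
Level of each eIF3 subunit gene (left) and each eIF2 or eIF2B subunit gene (right) in the 3 cKO (red) and 3 control (blue) hearts at about 10 weeks, in TMM-scaled CPM on a log axis, ordered by log2 fold change. Eif3c, at 768 to 859 CPM in cKO and 148 to 157 CPM in control hearts, and Eif2b3 head the panels, and the groups overlap for Eif3k, Eif3m, Eif3f and Eif2b4.

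The cap-binding group was split, with 5 of 10 genes higher late, 3 lower and 2 not called. The helicase eIF4A unwinds the mRNA leader and comes in a pair of close forms, Eif4a1 and Eif4a2, which moved in opposite directions. Eif4a1 was 531, 585 and 701 CPM in late cKO hearts, against 165, 161 and 146 CPM in late controls (1.95, SE 0.14, adjusted p = 4.9e-06). Eif4a2 was 108, 87.9 and 80.3 CPM in late cKO hearts, against 266, 254 and 258 CPM in late controls (-1.50, SE 0.13, adjusted p = 1.52e-05). No cKO heart overlapped a control for either gene. Per kilobase of exon, Eif4a2 made up 11.2% ± 2.81 of the pair in late cKO hearts and 57.3% ± 1.47 in late controls (SD, n = 3 each), so that the more abundant form of the control hearts was the minor one in cKO hearts. In early hearts its share was 66.4% ± 1.48 in cKO and 67.8% ± 2.23 in controls (SD, n = 4 each). Eif4a1 shares 22.4% of its 100-base windows with the pseudogene Eif4a-ps4 and another annotated gene, while Eif4a-ps4 had 25 to 87 counts per late library, against 4854 to 20564 for Eif4a1.

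Eif4e, for the cap-binding protein itself, fell to 41.7, 43.0 and 46.0 CPM in late cKO hearts, against 108, 101 and 94.2 CPM in late controls. The groups were far apart and narrow (-1.21, SE 0.11, adjusted p = 1.67e-05). Its relatives moved apart from each other: Eif4e3, an atypical cap-binding form, fell (log2 fold change -0.60, adjusted p = 0.00116), and Eif4e2, whose product 4EHP binds caps without recruiting eIF4G and represses its targets, rose by 0.68 (adjusted p = 0.00259). Per kilobase of exon Eif4e2 made up 33.1% ± 4.69 of the family of 3 in late cKO hearts and 14.6% ± 0.453 in late controls, and Eif4e 24.1% ± 0.175 in cKO and 39.6% ± 0.802 in controls (SD, n = 3 each). Of the scaffolds, Eif4g3 was 134, 135 and 123 CPM in cKO hearts, against 59.6, 64.2 and 65.3 CPM in controls (1.05, adjusted p = 3.21e-05). Eif4g1 (-0.13, adjusted p = 0.419) and Eif4g2 (0.33, adjusted p = 0.0902) were not called. Eif4g2 was called higher without late cKO replicate 3 (0.48, adjusted p = 0.00276) and with DESeq2 (0.35, DESeq2 adjusted p = 0.0491). Eif4g3 remained the least abundant of the 3 per kilobase, at 7.15% ± 0.847 of the family in cKO hearts and 3.90% ± 0.222 in controls. The helicase cofactors Eif4h and Eif4b rose by 0.75 and 0.45.

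The repressors that sequester eIF4E moved in opposite directions as well. Eif4ebp1, a target of mTORC1 and of ATF4, was 302, 297 and 478 CPM in late cKO hearts, against 70.0, 63.6 and 52.3 CPM in late controls. Late cKO replicate 3 was the highest, and the log2 fold change of 2.53 (SE 0.21, adjusted p = 1.13e-05), or 5.79-fold, was the largest of the 63 genes. Eif4ebp2 was 68.7, 68.2 and 53.7 CPM in cKO hearts, against 117, 119 and 128 CPM in controls (-0.94, SE 0.13, adjusted p = 0.000196). Eif4ebp1 made up 93.3% ± 2.25 of the pair per kilobase in late cKO hearts and 57.1% ± 4.80 in late controls (SD, n = 3 each). The gene Eif4enif1, for the eIF4E transporter 4E-T, rose by 0.75.

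In early hearts Eif4ebp1 was 54.8, 58.1, 57.9 and 54.3 CPM in cKO, against 42.8, 41.6, 54.5 and 43.6 CPM in controls. Control replicate 3 lay inside the cKO range, apart from the other 3 controls. The early difference missed the threshold with all hearts (0.30, SE 0.08, adjusted p = 0.17), passed it without control replicate 3 (0.40, adjusted p = 0.0151), and passed it with no filter on low counts (adjusted p = 0.0199).

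**Figure D3:**
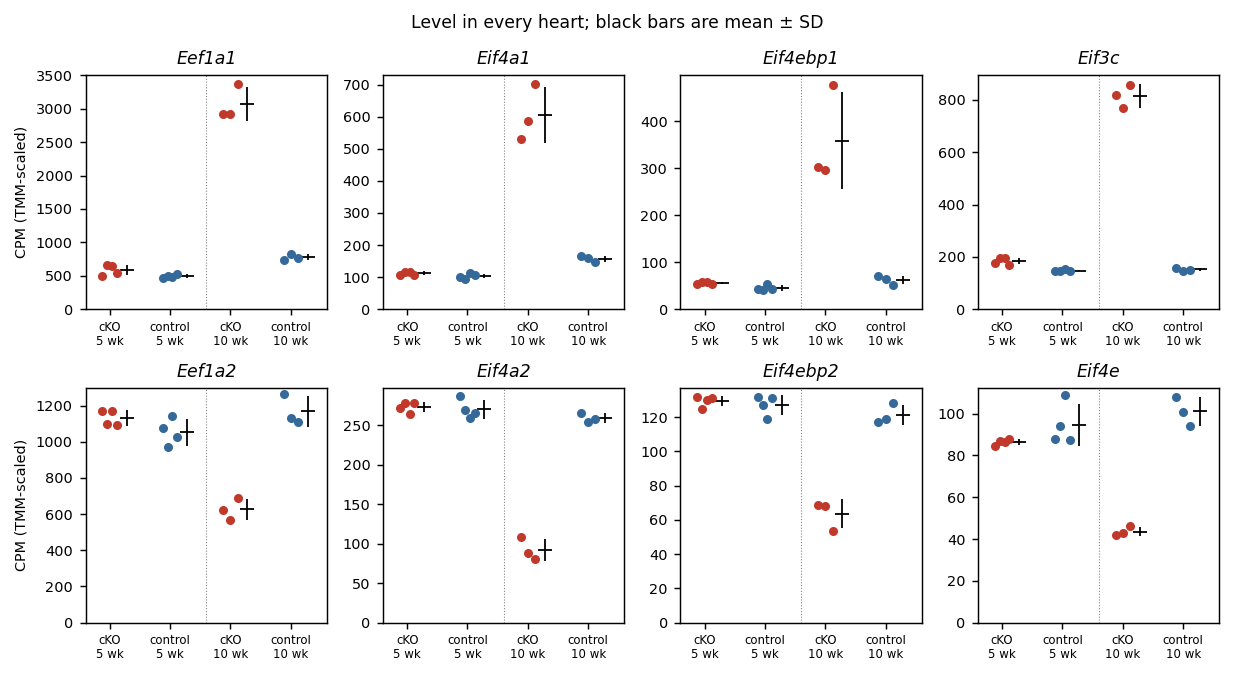
Level of 8 genes in every heart, in TMM-scaled CPM, with cKO in red and controls in blue at about 5 weeks (left of the dotted line) and about 10 weeks (right), and black bars for the mean ± SD. At 10 weeks the upper-row genes Eef1a1, Eif4a1, Eif4ebp1 and Eif3c are higher in every cKO heart and the lower-row genes Eef1a2, Eif4a2, Eif4ebp2 and Eif4e lower; levels across the dotted line come from separate tables and are not compared.

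Of the 6 elongation factor genes, 2 (33.3%) rose late, 1 (16.7%) fell and 3 were not called. The share that rose was near the 31.8% of all tested genes, of which 33.2% fell. Eef1a1 was 2927, 2922 and 3367 CPM in late cKO hearts, against 736, 825 and 768 CPM in late controls (1.98, SE 0.13, adjusted p = 3.27e-06, or 3.96-fold). Eef1a2, the muscle and nerve form, was 624, 566 and 686 CPM in late cKO hearts, against 1263, 1132 and 1107 CPM in late controls (-0.90, SE 0.13, adjusted p = 0.000245). The groups did not overlap for either gene. Per kilobase of exon, Eef1a2 made up 19.6% ± 0.754 of the pair in late cKO hearts and 64.2% ± 2.67 in late controls (SD, n = 3 each). The order of the 3 most abundant members per kilobase changed with it: in late cKO hearts Eef1a1 stood at 1232 ± 102 CPM per kilobase, above Eef2 at 737 ± 46.5 and Eef1a2 at 300 ± 28.8, and in late controls Eef1a2 stood at 560 ± 40.0, above Eef2 at 479 ± 8.74 and Eef1a1 at 311 ± 18.1.

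In early hearts Eef1a2 made up 69.8% ± 3.18 of the pair in cKO and 71.8% ± 2.26 in controls (SD, n = 4 each), a difference smaller than the spread. Eef1a1 was 495, 664, 642 and 545 CPM in early cKO hearts, against 468, 502, 477 and 529 CPM in early controls, with overlap (0.25, adjusted p = 0.356). Of the 100-base windows of Eef1a1, 26.7% occur in 10 other annotated genes, and none of those of Eef1a2 do. Eef2 was 2456, 2292 and 2600 CPM in late cKO hearts, against 1600, 1560 and 1616 CPM in late controls (0.62, SE 0.12, adjusted p = 0.00155). The subunits of eEF1B, which recharges eEF1A, were not called late: Eef1d had a log2 fold change of 0.36 (adjusted p = 0.199), Eef1b2 of 0.03 (adjusted p = 0.904) and Eef1g, with 49.4% of its windows shared, of -0.05 (adjusted p = 0.822). Each of these 3 was highest among the 6 late hearts in cKO replicate 3.

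**Figure D4:**
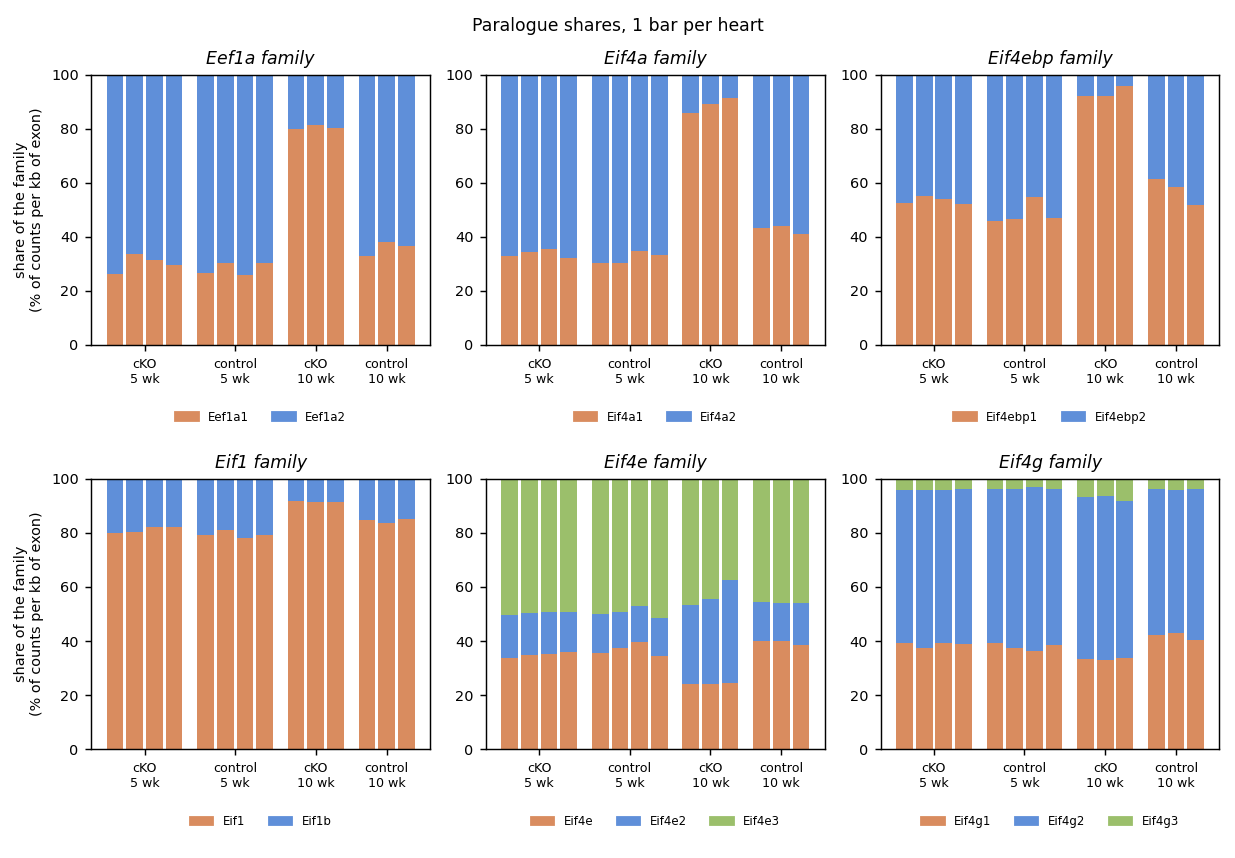
Share of each paralogue in its family, in percent of counts per kilobase of exon, with 1 bar per heart and the families in separate panels. In late cKO hearts Eef1a2 takes 18.8 to 20.3% and Eif4a2 8.52 to 14.1% of their pairs, against 62.1 to 67.2% and 56.2 to 59.0% in late controls, and in early hearts Eef1a2 takes 66.4 to 73.9% in cKO and 69.8 to 74.1% in controls.

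The gene of the kinase that inhibits eEF2 also rose late. Eef2k was 121, 108 and 113 CPM in late cKO hearts, against 57.8, 46.7 and 46.4 CPM in late controls, with no overlap (1.18, SE 0.12, adjusted p = 4.23e-05). Of the methyltransferases listed as regulators of elongation factors, Eef2kmt rose by 0.52 (adjusted p = 0.0342) and Eef1akmt1 fell (-0.62, adjusted p = 0.0426). Both calls were lost in several leave-one-out fits, Eef2kmt without cKO replicate 3 or any control (adjusted p 0.0528 to 0.113) and Eef1akmt1 without replicate 1 or 2 of either group (adjusted p 0.081 to 0.183). Eef2kmt also overlaps genes of the opposite strand over 23.0% of its exon bases.

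The 3 genes of eIF5A and eIF6 all rose late. Eif6, whose product keeps the large ribosomal subunit from joining the small one too soon, was 84.2, 85.8 and 134 CPM in late cKO hearts, against 29.3, 28.2 and 26.1 CPM in late controls (1.86, SE 0.19, adjusted p = 3.27e-05). Eif5a, for the hypusine-bearing factor that helps ribosomes through difficult peptide sequences, was 503, 485 and 714 CPM in cKO hearts, against 271, 242 and 223 CPM in controls (1.21, SE 0.17, adjusted p = 0.000232). The groups did not overlap, and cKO replicate 3 was the highest heart for both. Its scarce paralogue Eif5a2 was 7.25, 7.87 and 5.18 CPM in cKO hearts, against 2.18, 3.24 and 3.03 CPM in controls (1.26, adjusted p = 0.000942).

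Genes that carry a factor name but have other main roles went the same way in part. Eif1ad, named for its eIF1A-like domain, was 70.2, 81.4 and 116 CPM in late cKO hearts, against 26.7, 25.5 and 25.8 CPM in late controls (1.78, adjusted p = 3.64e-05), and overlaps the neighbouring gene Banf1 over 15.3% of its exon bases. Eef1e1, which encodes a scaffold protein of the multi-tRNA synthetase complex, rose by 1.05 (adjusted p = 0.000905). Eif4a3, a core protein of the exon junction complex, had a log2 fold change of 0.01 (adjusted p = 0.956). Eef1kmt4 was placed in no role group. It was called higher late (0.71, adjusted p = 0.0427), at 2.11, 2.44 and 4.01 CPM in cKO hearts. Controls were at 1.92, 1.67 and 1.62 CPM, and the call was lost without cKO replicate 3 or any control (adjusted p 0.0612 to 0.14).

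The change between cKO and control hearts was next compared between the times. In a joint fit of all 14 hearts, the late change exceeded the early one for 42 of the 63 genes and fell short of it for 5, with 16 not called, where 29.8% and 31.3% of all 14555 tested genes were called. Eif3c differed most clearly, by a log2 value of 2.12 (SE 0.10, adjusted p = 3.57e-10), followed by Eif4a1 (1.86, adjusted p = 1.9e-08), Eif2s2 (1.72, adjusted p = 4.58e-08) and Eif3a (1.85, adjusted p = 4.81e-08). The 5 negative differences were those of Eif4a2 (-1.49), Eif4e (-1.07), Eef1a2 (-0.99), Eif4ebp2 (-0.94) and Eif4e3 (-0.55). Without late cKO replicate 3, 10 genes were called negative. The joint fit took 1 variance estimate per gene for both times. For some genes its SE was below that of the late change fitted alone, as for Eif3c (0.10 against 0.12) and Eif4g2 (0.14 against 0.16). Adjusted p-values of the difference may be too small for such genes. Eif4g2 was called for the difference (0.39) but at neither time.

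Across the 63 genes, the early and late log2 fold changes had a Pearson r of 0.414 and a Spearman rho of 0.419, and 43 genes (68.3%) had the same sign at both times. Over all 13485 genes tested at both times, r was 0.24, rho 0.21 and 57.5% had the same sign. These are descriptions across genes, which share the hearts and are not independent replicates. In the early hearts 5 members, Eif2s2, Eif3c, Eif2b3, Eif3b and Eif4e2, were higher in every cKO heart than in every control, against 2.98% of all tested genes, and none was lower in every cKO heart, against 2.68%. All 5 rose late. Early cKO replicate 2 held the most of the atrial markers, which summed to 55.8 to 1262 CPM in early cKO hearts, against 60.1 to 303 CPM in early controls; their part in the early values was not tested.

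**Figure D5:**
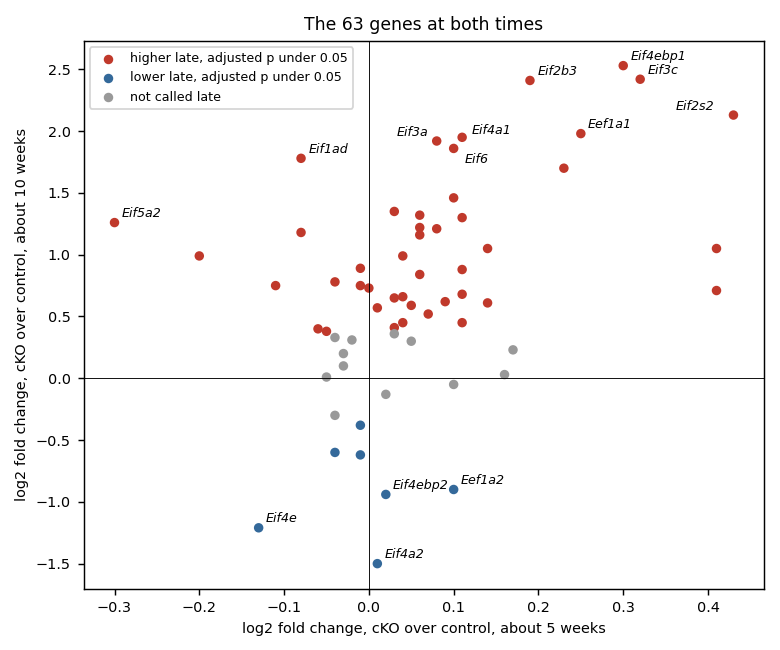
Log2 fold change of the 63 genes, cKO over control, at about 5 weeks (horizontal) and about 10 weeks (vertical), coloured by the late call. The horizontal scale runs from -0.30 (Eif5a2) to 0.43 (Eif2s2) and the vertical one from -1.50 (Eif4a2) to 2.53 (Eif4ebp1).

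Partner genes of the factors were taken from 5 lists, of which 50 genes were tested late. Of these 31 (62.0%) rose and 4 (8.0%) fell late, at a median log2 fold change of 0.51, where 31.8% of all tested genes rose and 33.2% fell at a median of -0.02. In early hearts 1 (2.0%) rose, Sesn2, for a stress-induced inhibitor of mTORC1, against 0.517% of all tested genes, and none fell. Its early log2 fold change was 0.94 (adjusted p = 0.0406), a call lost in every fit that left out a heart other than cKO replicate 4. In late hearts Sesn2 was 72.6, 40.3 and 84.6 CPM in cKO, against 3.94, 4.09 and 4.68 CPM in controls (3.96, SE 0.27, adjusted p = 4.25e-06).

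In the list on eIF2 phosphorylation, which also holds Cdc123 and Abcf1, 6 of 9 genes (66.7%) rose late and 1 (11.1%) fell. Ppp1r15a encodes GADD34, the stress-induced subunit that guides a phosphatase to eIF2, and was 218, 183 and 259 CPM in late cKO hearts, against 26.1, 26.5 and 26.9 CPM in late controls (3.05, SE 0.15, adjusted p = 6.97e-07). Nck1, for an adaptor protein, was 10.1, 10.8 and 11.3 CPM in cKO hearts, against 31.1, 32.4 and 28.2 CPM in controls (-1.51, adjusted p = 8.29e-06). Cdc123, which helps assemble eIF2, rose by 0.57.

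Of 17 regulators of mTORC1 and the cap complex 10 (58.8%) rose and Pdcd4 fell. Ddit4, which encodes another stress-induced inhibitor of mTORC1, rose by 1.86, and Mknk1, for a kinase that phosphorylates eIF4E, by 1.27. Pdcd4, whose protein blocks eIF4A, was 10.8, 8.50 and 7.78 CPM in late cKO hearts, against 20.2, 21.5 and 22.0 CPM in late controls (-1.23, adjusted p = 8.91e-05). Among 7 genes for poly(A)-binding proteins and scanning helicases 3 (42.9%) rose and 2 (28.6%) fell, shares near those of all tested genes. The helicase gene Dhx29 rose by 0.81 and Paip2, for an inhibitor of the poly(A)-binding protein, fell by 0.41 on the log2 scale. The helicase gene Ddx3x was called higher (0.83, adjusted p = 0.0104), at 218, 214 and 115 CPM in cKO hearts and 91.4, 100 and 116 CPM in controls, where cKO replicate 3 lay among the controls.

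Of 8 genes of termination, recycling and reinitiation 6 (75.0%) rose and none fell. Etf1, for the release factor that reads stop codons, was 387, 411 and 405 CPM in late cKO hearts, against 104, 98.4 and 107 CPM in late controls (1.96, SE 0.11, adjusted p = 1.21e-06). Abce1, which splits ribosomes after termination, rose by 1.10 and Hbs1l, a rescue factor for stalled ribosomes, by 0.81. Of 9 genes for the enzymes that make hypusine on eIF5A and diphthamide on eEF2, with the selenocysteine elongation factor gene Eefsec, 6 (66.7%) rose and none fell. The diphthamide genes Dph5 and Dph6 rose by 1.76 and 1.16 and Eefsec by 1.38.

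The sequence before the RefSeq start is shown for 2 of the paralogue pairs whose forms moved in opposite directions late, Eef1a1 with Eef1a2 and Eif4a1 with Eif4a2, and for Eif3c and Eif2s2, the genes called at both times. RefSeq promoters (build GRCm38.p6) were found for 50 of the 63 genes, and 4 short motifs were searched on both strands in the 250 bases before the start. These were TGATGNAA, the C/EBP-ATF composite element that ATF4 can bind, TGACGT, a cyclic AMP response half-site, CACGTG, the E-box bound by MYC and related factors, and CCGGAAG, an ETS site. None of the 4 motifs contains another of them. The sequences run 5′ to 3′ on the gene's strand, and capitals mark matches on either strand. RefSeq and GENCODE place some starts differently: the RefSeq start lies 7427 bases inside the GENCODE span of Eef1a1, 45 bases inside that of Eif3c, 29 inside that of Eif2s2 and 24 inside that of Eif4a2, so those windows overlap sequence that GENCODE assigns to the gene. The first pair is Eef1a1 (chr9:78481725-78481974, minus strand) and Eef1a2 (chr2:181157016-181157265, minus strand).
Eef1a1: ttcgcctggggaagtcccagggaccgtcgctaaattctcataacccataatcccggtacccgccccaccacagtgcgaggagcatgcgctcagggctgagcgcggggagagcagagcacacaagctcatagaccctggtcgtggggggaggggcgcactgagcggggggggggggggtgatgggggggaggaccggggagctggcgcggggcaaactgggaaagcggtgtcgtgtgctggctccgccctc
Eef1a2: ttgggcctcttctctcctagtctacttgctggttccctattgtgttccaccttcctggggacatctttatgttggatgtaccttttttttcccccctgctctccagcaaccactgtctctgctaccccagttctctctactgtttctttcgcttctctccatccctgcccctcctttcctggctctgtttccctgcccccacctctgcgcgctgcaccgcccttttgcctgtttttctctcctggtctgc
The second pair is Eif4a1 (chr11:69672424-69672673, minus strand) and Eif4a2 (chr16:23107218-23107467, plus strand), and the last genes are Eif3c (chr7:126566367-126566616, minus strand) and Eif2s2 (chr2:154892907-154893156, minus strand).
Eif4a1: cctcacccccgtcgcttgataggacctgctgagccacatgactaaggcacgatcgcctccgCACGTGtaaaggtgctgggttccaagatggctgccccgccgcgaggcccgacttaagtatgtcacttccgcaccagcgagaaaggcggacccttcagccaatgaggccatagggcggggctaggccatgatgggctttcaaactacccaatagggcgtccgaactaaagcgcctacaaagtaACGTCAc
Eif4a2: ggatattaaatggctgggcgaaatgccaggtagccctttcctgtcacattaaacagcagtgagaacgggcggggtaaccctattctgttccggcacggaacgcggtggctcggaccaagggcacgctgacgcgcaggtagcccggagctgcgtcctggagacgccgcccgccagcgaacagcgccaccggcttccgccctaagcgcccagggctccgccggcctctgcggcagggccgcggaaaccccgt
Eif3c: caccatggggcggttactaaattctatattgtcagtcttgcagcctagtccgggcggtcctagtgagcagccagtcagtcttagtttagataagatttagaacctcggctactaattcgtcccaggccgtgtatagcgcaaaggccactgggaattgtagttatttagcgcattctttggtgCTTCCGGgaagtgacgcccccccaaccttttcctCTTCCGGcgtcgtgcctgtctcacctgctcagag
Eif2s2: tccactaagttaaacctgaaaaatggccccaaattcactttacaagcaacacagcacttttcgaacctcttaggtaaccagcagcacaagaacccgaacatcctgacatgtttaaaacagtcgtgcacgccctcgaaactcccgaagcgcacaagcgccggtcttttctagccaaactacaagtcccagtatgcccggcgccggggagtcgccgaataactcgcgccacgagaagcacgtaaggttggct

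The window of Eif4a1 held CACGTG at 189 to 184 bases before the start and TGACGT, on the other strand, at 7 to 2 bases before it. That of Eif3c held CCGGAAG, on the other strand, at 68 to 62 and 34 to 28 bases before the RefSeq start, the second match inside the GENCODE span. The windows of Eif2s2, Eef1a1, Eef1a2 and Eif4a2 held none of the 4 motifs. The pairs differed in base composition, with 68.0% G and C and 18 CpG in the window of Eef1a1 and 54.0% and 4 CpG in that of Eef1a2, and with 58.8% and 18 CpG in that of Eif4a1 and 66.4% and 27 CpG in that of Eif4a2. Over the 50 promoters, TGATGNAA was in 2 (4.0%, Eef2k and Eif2s3x), against 3.91% of the promoters of 27025 genes. TGACGT was in 9 (18%), against 7.29%, CACGTG in 11 (22.0%), against 6.86%, and CCGGAAG in 12 (24.0%), against 7.83%. Each of these last motifs contains a CpG, and TGATGNAA does not. The 27025 genes were not matched to the members by expression or CpG content, so the shares do not show an excess particular to the members. Eif4ebp1, Eif2b3 and Eif6 were among the genes without a promoter here and were not searched. Of the 5 promoters of genes that fell late, 1 held TGACGT, 2 CACGTG and 2 CCGGAAG. Of the 36 promoters of genes that rose late, 7 held TGACGT, 6 CACGTG and 9 CCGGAAG. A match describes the letters and shows no binding.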

How the data were processed

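Poly-A selected RNA of whole hearts was sequenced. Per the labels' protocols, libraries were made from 100 ng of total RNA with the TruSeq RNA kit V2, a kit without strand marking, and read as single ends of 100 nt. The submitters' processing notes name Trimmomatic 0.36, STAR 2.6.0c and the build GRCm38. The sources used here do not give how reads were counted, with which annotation and with which strand setting. The authors deposited raw read counts, as whole numbers for each gene symbol, in 1 table per time, with no normalization visible in the values.

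Counts were tested with edgeR 4.0.16 (quasi-likelihood F test, TMM, filterByExpr with a minimum count of 10 and total of 15) in R 4.3.3, within each time and, for the difference between times, over all hearts with 4 group means. P-values were adjusted over all tested genes by Benjamini and Hochberg and called under 0.05; all 63 genes passed the filter in each of these fits. DESeq2 1.42.0, other scalings, no filter, leaving out mitochondrially encoded genes, leaving out single hearts and a replicate block were alternatives. For the difference between times, no control was left out and no replicate block was fitted. The hearts left out there were early cKO replicates 2 and 4 and late cKO replicate 3, 1 at a time. A gene was named with values if it was called early, was among the 4 smallest late p-values of its role group or the 3 smallest of a partner list, was among the 4 smallest p-values for the difference between times, was called against most of its group, or by its role. The members, roles and lists were chosen with earlier results of these data known. Coordinates and exon lengths came from GENCODE M21 (GRCm38), which held 53.2% of all symbols and 62 of the 63 genes (Eef1kmt4 was not among them), and shared 100-base windows were counted in the longest transcript. CPM per kilobase divides by the union of annotated exons, which can differ from the transcripts expressed in heart. Same-numbered cKO and control hearts did not deviate together, so numbers were not used as pairs. The edgeR step was tested on simulated counts with known changes. The share of its calls that fell on unchanged genes was above the nominal 0.05 there, so calls close to the threshold are the least certain. Far fewer genes were changed in that simulation than were called late, so its share cannot be carried over to the late calls.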

Additional observations from a re-analysis of the deposited data

Results flagged for a closer look

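For 47 of the 63 genes, the change between cKO and control hearts differed between about 10 and about 5 weeks in the joint edgeR fit (adjusted p under 0.05). The late change minus the early change, on the log2 scale, was 1.72 for Eif2s2, 1.12 for Eif2s1, 1.22 for Eif2s3y, 0.84 for Eif2s3x, 2.24 for Eif2b3, 1.17 for Eif2b2, 0.81 for Eif2b1 and 0.64 for Eif2b5 among the subunits of eIF2 and eIF2B. It was 2.12 for Eif3c, 1.85 for Eif3a, 1.38 for Eif3b, 1.34 for Eif3d and 1.28 for Eif3l among those of eIF3, with smaller values of 0.96 for Eif3g, 0.92 for Eif3j1, 0.78 for Eif3h, 0.74 for Eif3e and 0.63 for Eif3i, and 0.55 for the kinase gene Eif2ak1. Factors of start codon selection gave 1.5 for Eif1a, 1.21 for Eif5, 0.57 for Eif2d, 0.49 for Eif1, 0.49 for Eif5b, 0.45 for Eif1ax and 0.43 for Eif2a. In the cap-binding group it was 1.86 for Eif4a1, 0.93 for Eif4g3, 0.79 for Eif4h, 0.58 for Eif4e2, 0.39 for Eif4g2, 0.36 for Eif4b, -1.49 for Eif4a2, -1.07 for Eif4e and -0.55 for Eif4e3, and among the repressors 2.25 for Eif4ebp1, 0.87 for Eif4enif1 and -0.94 for Eif4ebp2. The elongation genes gave 1.76 for Eef1a1, 0.55 for Eef2, -0.99 for Eef1a2 and 1.28 for Eef2k. Among the eIF5A and eIF6 genes and those with other main roles it was 1.77 for Eif6, 1.15 for Eif5a, 1.58 for Eif5a2, 1.87 for Eif1ad and 0.66 for Eef1e1. Of these calls, 44 held in every alternative run for this comparison. Those runs left out early cKO replicate 2 or 4 or late cKO replicate 3, never a control, and had no replicate block. Each of them also took 1 variance estimate per gene for both times, which may make some of these calls too easy. The differences of Eif4g2 and Eif4b were not called with library totals as the only scaling (adjusted p = 0.0888 and 0.067), and that of Eef1e1 was not called with library totals as the only scaling (adjusted p = 0.0692), without early cKO replicate 4 (0.0562) or without late cKO replicate 3 (0.0641).

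Among early hearts, Eif4ebp1 in control replicate 3 (54.5 CPM) lay far from the other 3 controls relative to the range of that group. Chance alone flags about 1 in 20 groups of this size.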

How the results depend on the processing

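Of the late calls, 39 of the 44 higher ones and 5 of the 7 lower ones were called in every fit that left out 1 heart, and the same numbers held over every scaling, filter and tool. No member called in a comparison changed sign under any alternative run for it, while 18 uncalled members did early, 4 late (among them Eif4a3, at -0.14 to 0.13 when 1 heart was left out) and 3 for the difference between times. Late counts were 39 to 45 higher and 5 to 8 lower over all alternatives, and 39 and 5 with the replicate block. The 2 early calls became 1 with library totals as the only scaling and 1 with the replicate block, and 0 to 3 when 1 heart was left out. They stayed 2 with early cKO replicate 4 left out or counted as a control. The 1 early call in the partner lists became 0 with the replicate block and 0 to 1 when 1 heart was left out. Genes whose change was lower late than early numbered 5, and 10 without late cKO replicate 3; the alternative without early cKO replicate 2 was chosen after seeing the data and gave 42 higher. Without division by exon length, the share differences of late cKO minus control hearts were 50.5 points for Eif4ebp1 (36.2 per kilobase), -22.4 points for Eif4e (-15.4) and -4.26 points for Eif1b (-7.08). The cause of these shifts was not tested. Library totals as the only scaling moved the median of all tested genes to -0.09 late. Same-numbered hearts correlated at -0.0890 to -0.0365 early and -0.412 to -0.0580 late in their deviations from the group means. With so few hearts per group, these values show no pairing by the labels' numbers but cannot exclude it. Depth limits Eef1kmt4 and Eif5a2 most.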
